A study of Sus scrofa with 10 samples.

Results

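The genes described here are the ubiquitin conjugation and deubiquitinase families as an Affymetrix porcine array measures them. They comprise the UBA activating enzymes, the UBE2 conjugating enzymes, the UBE3 ligases, the cullins with the adaptor DDB1, the F-box proteins of the FBXL, FBXO and FBXW classes, and the deubiquitinases of the USP, UCHL and OTUD families. Members were chosen by gene symbol in the platform annotation, with DDB1 added by name, USP8 left out and array control probe sets not used. The rule itself uses no measured value, but the members were chosen with earlier results of these data known. The rule found 120 probe sets for 71 genes, of 6765 genes with a symbol of their own on the array. Each gene was read from its brightest probe set, the one with the highest mean over all 10 arrays.

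Porcine fibroblasts were grown from the tissue, without the head, of day 24 fetuses of a Danish Landrace/Yorkshire x Duroc cross. Magnetic beads and an antibody to SSEA-1, a fucosylated carbohydrate of the cell surface, divided the culture into an SSEA1+ fraction and an SSEA1- fraction, with 5 arrays of each and replicate numbers 1 to 5 in both. Both fractions came from this magnetic sort, and the labels give neither a further treatment. Any effect of the antibody and beads on the cells cannot be told apart from the fraction. The submitters call the replicates biological but name a single fibroblast line, so they need not be separate animals. The question was how the sorted fractions differed in expression, and all differences below are SSEA1+ minus SSEA1- on the log2 scale.

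Ubiquitin is passed along a relay of enzymes. An E1 activates it, an E2 carries it, and an E3 ligase brings the E2 to the substrate, while deubiquitinases take it off again. Cullins are the scaffolds of the largest ligase family: CUL1 holds F-box proteins, each of which picks its own substrates, CUL2 holds elongin-based receptors, and CUL4A holds DDB1. Cullins are switched on by attaching NEDD8, a ubiquitin-like protein with an E1 and E2 of its own, and are switched off when the COP9 signalosome removes it. In proliferating fibroblasts these ligases turn over cyclins, CDK inhibitors and replication factors. These roles are known mostly from human and mouse.

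The arrays had medians of 1.15 to 1.19 and between 69.3% and 72.5% of probe sets above a background level of 0.35, and their number limits the precision of every value. Of 12 measured fibroblast markers, 12 lay above background on all 10 arrays, though COL3A1 was dim, at 0.75 in SSEA1+ and 0.68 in SSEA1-. The 12 had a summed signal of 6756 to 7500 in SSEA1+ and 6900 to 7886 in SSEA1-. They did not move together: COL1A2 rose by 1.19 (adjusted p = 0.000434), more than any member, and in a fit that pairs arrays by replicate number (the block) THY1 rose (adjusted p = 0.0146) and FAP fell (adjusted p = 0.00433) as well. Among 5 haematopoietic markers PTPRC, CD163 and SPI1 lay at background on every array, as did the endothelial markers CDH5 and TEK. CD14 lay above background on 9 of 10 arrays and ITGAM on 2. Among the endothelial markers PECAM1, VWF and ERG did so on all 10 and KDR on 2. PECAM1 and VWF were dim, at 0.80 and 0.54 in SSEA1+ and 0.83 and 0.48 in SSEA1-. The summed signal of the 6 endothelial markers was 13.4 to 15.5 in SSEA1+ and 15.7 to 18.6 in SSEA1-; ERG fell by 0.42 (adjusted p = 0.0394), the other 5 did not pass, and 4 of the 6 read higher in SSEA1+. Of 8 epithelial markers 5 were above background on all arrays, none passed and KRT19 rose with the block (adjusted p = 0.0272), with a summed signal of 39.5 to 98.8 in SSEA1+ and 40.1 to 111 in SSEA1-. Of 3 measured neural markers 3 were above background on all arrays, with STMN2 at 6.22 in SSEA1+ and 6.16 in SSEA1-. SOX10 and ELAVL4 were dim, at 0.72 and 0.83 in SSEA1+ and 0.80 and 0.88 in SSEA1-. Of 4 erythroid markers 2 were above background on all arrays, HBB at 4.38 in SSEA1+ and 4.54 in SSEA1-, and KLF1, dim at 0.55 and 0.54. No neural or erythroid marker passed, with or without the block. The part of these markers in the results was not tested. The hybridisation controls themselves differed between the fractions, with a mean of 6.75 to 7.17 in SSEA1+ and 6.21 to 6.60 in SSEA1-. Spike-in RNAs with a poly-A tail, meant to be added before labelling, read differently in the fractions relative to the hybridisation controls, without overlap, at -3.45 to -2.66 in SSEA1+ and -4.32 to -3.80 in SSEA1-, and values with this poly-A level as a covariate are given for the genes that passed. In such bulk samples fewer cells of a type and less RNA per cell cannot be told apart.

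Of the 71 genes, 8 passed an adjusted p of 0.05 in limma over all probe sets, or 11.3%, against 7.39% of all genes. DDB1, FBXO32, USP10 and UBE2Q1 rose, and UBE2J2, CUL1, UBA3 and CUL2 fell. DDB1 and FBXO32, at 1.82-fold and 1.88-fold, were the members that also reached 1.5-fold, where 1.32% of all genes did. By direction, 4 rose, where 3.21% of all genes did, and 4 fell, where 4.18% did. DDB1 entered the rule by name and the members were chosen with earlier results known, so these shares are a description and no test. The median difference over the 71 was 0.02, against -0.01 over all genes, and 60 of the 71 differed by less than 0.3 in either direction. More members lay above 0 than below it, 37 of 71, where 47.6% of all genes lay above. For 11 members the fractions did not overlap, as for 8.51% of all genes, with 6 higher in SSEA1+ (3.96% of all genes) and 5 lower (4.55%). For 28 members all 5 pairs of same-numbered arrays differed in one direction, 14 up, where 12.5% of all genes were, and 14 down, where 16.6% were; 29.1% of all genes differed one way throughout.

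With the replicate number as a block, 17 members passed, against 14.3% of all genes, with 6 higher (5.65% of all genes) and 11 lower (8.62%). The 9 genes added were UBE2H and USP9X among the higher and UBA2, UBE2C, UBE2T, FBXO9, FBXO34, FBXO38 and USP16 among the lower. Counts were small and moved when arrays were left out. The number that fell was 1 without SSEA1+ replicate 1 or 3 or SSEA1- replicate 1 or 3, and 2 without SSEA1+ replicate 2 or 5 or SSEA1- replicate 5. With the pair of replicate 1 omitted, or that of replicate 3, 2 rose and 1 fell, and with the pair of replicate 5 omitted 2 rose and 0 fell. Over all genes 217 rose and 283 fell, and repeated quantile normalization turned that balance to 273 and 219 and cyclic loess to 273 and 224. Among the members these gave 4 and 3, and 4 and 4.

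**Figure D1:**
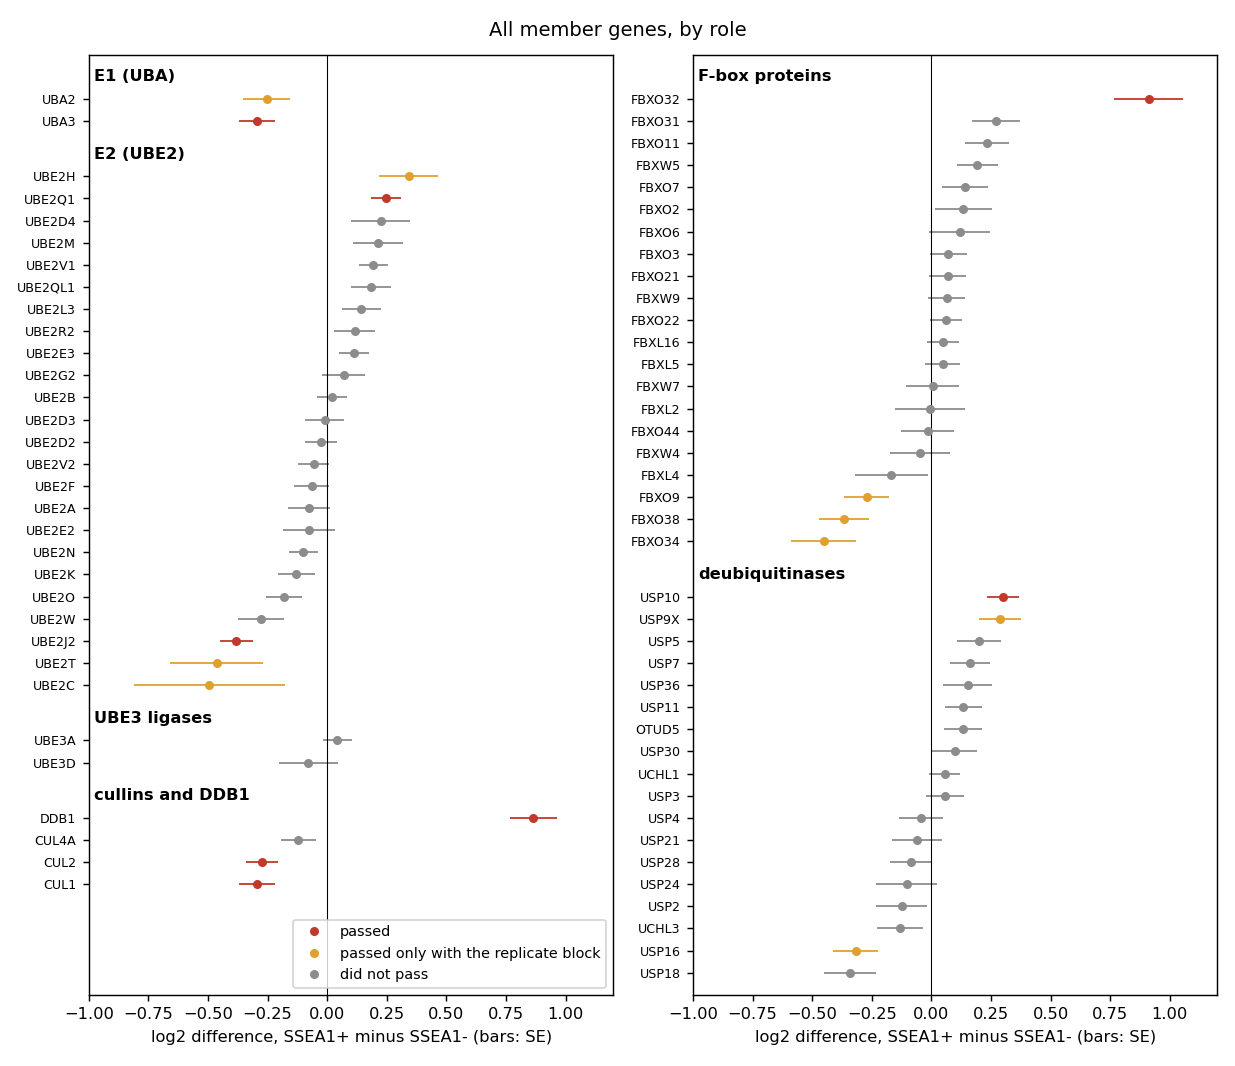
Log2 difference (SSEA1+ minus SSEA1-) of each of the 71 genes on the horizontal axis, grouped by role and ordered by size within a role; points are fitted differences, bars are 1 standard error, and colours mark genes that passed (red), passed with the replicate block alone (orange) or did not pass (grey). DDB1 and FBXO32 stand apart at 0.86 and 0.91, and most other members lie within 0.3 of 0.

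The activating enzymes on the array were UBA2, the catalytic subunit of the SUMO E1, and UBA3, the catalytic subunit of the NEDD8 E1; neither activates ubiquitin itself. UBA3 had log2 signals of 5.74, 5.67, 5.75, 5.81 and 5.93 in SSEA1+ replicates 1 to 5, against 6.04, 5.96, 6.10, 6.06 and 6.22 in SSEA1-. Every SSEA1+ array lay below every SSEA1- array, and the fall was 0.29 ± 0.07 (SE, adjusted p = 0.0334). Of its 4 other probe sets, the next brightest fell by 0.41 and passed too (adjusted p = 0.0206), those at -0.29 and -0.30 did not pass, and the remaining one lay at background. The call held without SSEA1+ replicate 4 or 5 or SSEA1- replicate 2 and ended in the other 7 single-array leave-outs and in all 5 without a pair, with adjusted p between 0.026 and 0.143. UBA2 averaged 6.65 ± 0.13 in SSEA1+ and 6.90 ± 0.19 in SSEA1- (SD, n = 5 each), lower in 5 of 5 pairs. Its difference of -0.25 did not pass in limma (adjusted p = 0.165) and passed with the replicate block (adjusted p = 0.0466); with the poly-A covariate it read -0.47 ± 0.18 (SE), without passing.

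NAE1, the regulatory partner of UBA3 in the NEDD8 E1, was measured in the list of cullin-RING genes and fell as well. It had 4.78, 4.81, 4.93, 4.84 and 4.89 in SSEA1+ replicates 1 to 5, against 5.24, 5.04, 5.30, 5.48 and 5.36 in SSEA1-. The fractions did not overlap, and NAE1 fell by 0.43 ± 0.08 (SE, adjusted p = 0.00885). Both subunits of the enzyme that activates NEDD8 were lower in the SSEA1+ fraction. NEDD8 itself read 6.27 ± 0.06 in SSEA1+ and 6.32 ± 0.14 in SSEA1- (SD, n = 5 each), a difference of -0.06 that did not pass (adjusted p = 0.761). The NEDD8-conjugating E2 enzymes UBE2M and UBE2F differed by 0.21 ± 0.11 and -0.07 ± 0.07 (SE) and did not pass either. The call of NAE1 held in all 10 single-array leave-outs and ended without the replicate 1 pair or the replicate 5 pair, in a range of adjusted p from 0.00327 to 0.0597.

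At the removal step, COPS8, a subunit of the COP9 signalosome, fell by 0.39 ± 0.07 (SE, adjusted p = 0.00612). It had 5.76, 5.72, 5.73, 5.67 and 5.73 in SSEA1+ replicates 1 to 5, against 6.15, 5.95, 6.12, 6.11 and 6.26 in SSEA1-, with no overlap and with the SSEA1+ arrays close together. The other 6 measured signalosome subunits did not pass, among them COPS5, which carries the protease that removes NEDD8, at -0.03 ± 0.08 (SE). COPS8 kept its call whichever array or pair was omitted. With the poly-A level as a covariate the differences were -0.21 ± 0.14 for UBA3, -0.56 ± 0.15 for NAE1 and -0.41 ± 0.14 for COPS8 (SE), and none of the 3 passed in that fit, in which 1 of the 71 members did. NAE1, NEDD8 and the signalosome genes are not members, and the NEDD8 genes were put side by side after their values were seen.

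**Figure D2:**
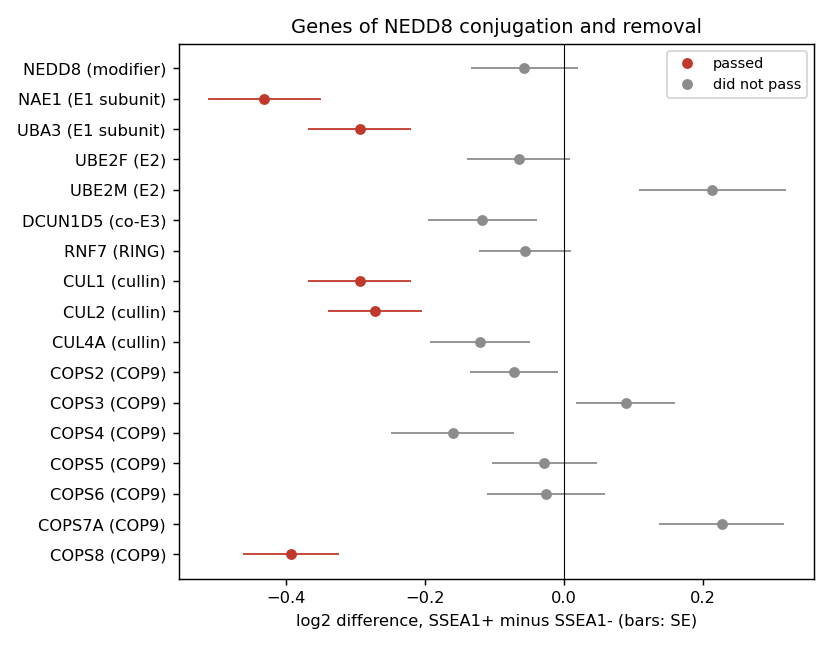
Log2 difference (SSEA1+ minus SSEA1-) of 17 genes of NEDD8 conjugation and removal, with the role of each in brackets; bars are 1 standard error, with red for genes that passed and grey for the others. NAE1, UBA3, CUL1, CUL2 and COPS8 lie to the left of 0 and passed, and the other 12 did not pass.

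Among the cullins, CUL1, the scaffold of the SCF ligases, had 5.67, 5.78, 5.54, 5.79 and 5.67 in SSEA1+ replicates 1 to 5, against 6.06, 6.04, 6.05, 5.93 and 5.85 in SSEA1-. CUL2, the scaffold that carries the VHL receptor, had 5.24, 5.15, 5.13, 5.32 and 5.27 in SSEA1+, against 5.51, 5.37, 5.52, 5.52 and 5.56 in SSEA1-. In both genes the fractions were apart on all arrays, CUL1 by 0.05 between the nearest arrays and CUL2 by 0.04. CUL1 fell by 0.29 ± 0.07 (SE, adjusted p = 0.0343) and CUL2 by 0.27 ± 0.07 (SE, adjusted p = 0.0324). Each has a single probe set. The call of CUL1 held without SSEA1+ replicate 2 or 4, SSEA1- replicate 4 or 5, or both arrays of replicate 4, and that of CUL2 held without SSEA1+ replicate 4, SSEA1- replicate 2, or both arrays of replicate 2 or 4. Both ended in the other leave-outs, where the adjusted p reached 0.168 for CUL1 and 0.154 for CUL2, and CUL2 did not pass after repeated quantile normalization (adjusted p = 0.053). With the poly-A covariate CUL1 read -0.20 ± 0.14 and CUL2 -0.21 ± 0.13, and with the replicate block beside it 0.02 ± 0.23 and -0.10 ± 0.21 (SE), without passing. CUL4A averaged 3.96 ± 0.09 in SSEA1+ and 4.08 ± 0.10 in SSEA1- (SD, n = 5 each), lower by a mean of 0.12 that did not pass (adjusted p = 0.398), and in replicate 5 both arrays read 4.03.

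DDB1, the adaptor that joins substrate receptors to CUL4, went the other way from the cullins. Its log2 signals were 4.81, 5.05, 4.91, 5.13 and 5.00 in SSEA1+ replicates 1 to 5, against 4.03, 4.30, 4.06, 3.85 and 4.34 in SSEA1-. The lowest SSEA1+ array stood 0.47 above the highest SSEA1- array, and the pair differences ran from 0.66 to 1.28. DDB1 rose by 0.86 ± 0.10 (SE, adjusted p = 0.000506), and no omission of an array or a pair ended its call, the adjusted p lying between 0.00075 and 0.00743. Once the poly-A level was a covariate, DDB1 rose by 1.21 ± 0.16 (SE, adjusted p = 0.0307), the single member to pass in that fit, and with the block beside it read 1.26 ± 0.27 (SE) without passing (adjusted p = 0.196). A single probe set reads the gene, so no second one could be set against it. DDB2, a DNA damage receptor that binds DDB1 in the CUL4 ligase, fell by 0.46 ± 0.10 (SE, adjusted p = 0.0154). It read 1.33 ± 0.20 in SSEA1+ and 1.78 ± 0.11 in SSEA1- (SD, n = 5 each). The call of DDB2 ended without both arrays of replicate 1, 3 or 5, at an adjusted p of up to 0.106, and with the poly-A covariate, where it read -0.38 ± 0.19 (SE, adjusted p = 0.443), or -0.08 ± 0.30 with the block beside it.

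**Figure D3:**
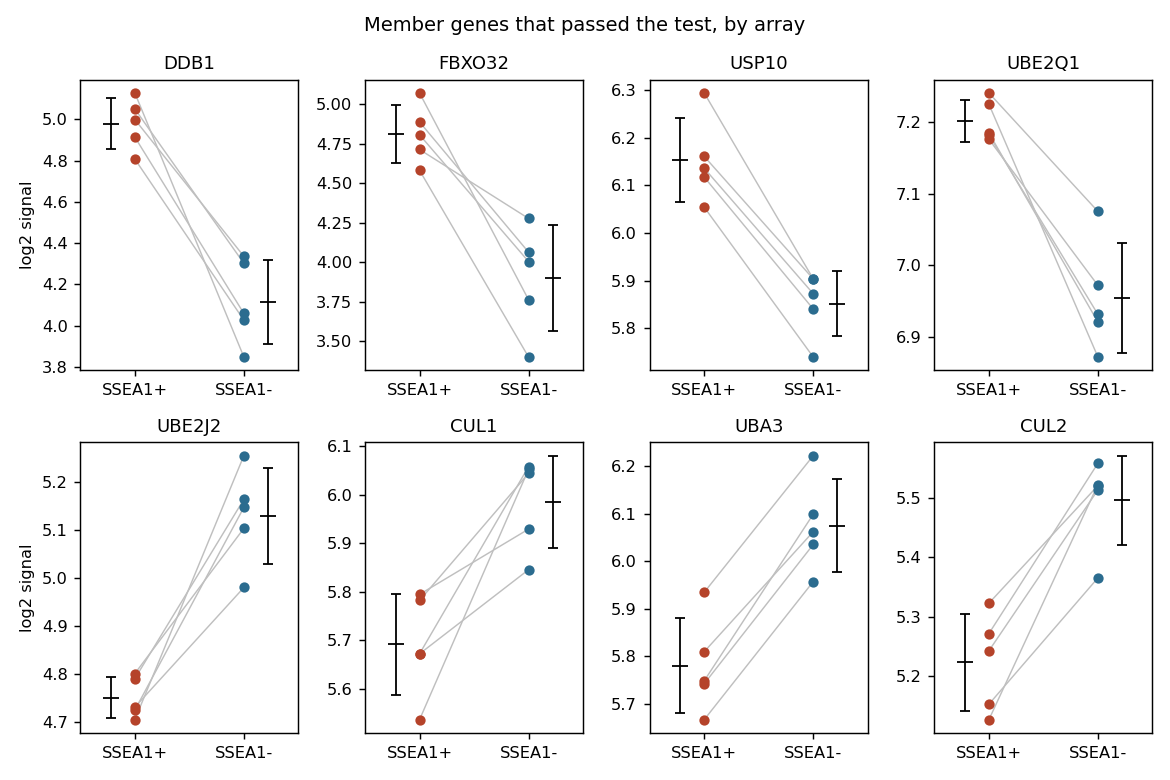
Log2 signal of the 8 genes that passed, 1 point per array, with SSEA1+ left of SSEA1-, grey lines joining arrays of the same replicate number, and bars giving the mean ± SD of 5 arrays; the vertical scale differs between panels. In each of the 8 the fractions do not overlap, and the gap is widest in DDB1, where the lowest SSEA1+ array reads 4.81 and the highest SSEA1- array 4.34.

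Of the 24 measured E2 enzymes 1 rose, 1 fell and 22 did not pass. The share that passed was 8.33%, against 7.39% of all genes. The differences lay between -0.49 and 0.34 with a median of -0.02, and all 24 were above background on every array. UBE2J2, a membrane-anchored E2 of the endoplasmic reticulum that serves the disposal of misfolded proteins, had 4.72, 4.73, 4.79, 4.80 and 4.70 in SSEA1+ replicates 1 to 5, against 5.15, 4.98, 5.16, 5.10 and 5.26 in SSEA1-. The SSEA1+ arrays lay close together and wholly below the others. UBE2J2 fell by 0.38 ± 0.07 (SE, adjusted p = 0.00636). Its call ended without both arrays of replicate 5 (adjusted p = 0.0562) and held in the other 14 leave-outs. It read -0.41 ± 0.13 (SE) with the poly-A covariate and did not pass (adjusted p = 0.231).

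UBE2Q1, an E2 with a long N-terminal extension, had 7.18, 7.24, 7.19, 7.18 and 7.23 in SSEA1+ replicates 1 to 5, against 6.97, 7.08, 6.92, 6.93 and 6.87 in SSEA1-. All SSEA1+ arrays stood above all SSEA1- arrays, and the rise was 0.25 ± 0.06 (SE, adjusted p = 0.0343). Its other probe set rose by 0.23 (adjusted p = 0.0448). The call held without SSEA1+ replicate 4, SSEA1- replicate 2 or both arrays of replicate 2, and ended in the other 12 leave-outs, with adjusted p up to 0.172. UBE2Q1 read 0.28 ± 0.12 (SE) with the poly-A covariate, close to its difference without it, and did not pass (adjusted p = 0.376).

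Several other E2 enzymes did not pass without the block. UBE2V1, an inactive E2 variant that pairs with UBE2N to build lysine-63 chains, had no overlap, at 7.14 ± 0.04 in SSEA1+ and 6.95 ± 0.06 in SSEA1- (SD, n = 5 each), but its adjusted p was 0.0812. Its partner UBE2N read 7.40 ± 0.03 in SSEA1+ and 7.50 ± 0.06 in SSEA1-, a difference of -0.10, also without passing. The remaining UBE2V1 probe sets read 0.03 and -0.13. UBE2H, the E2 of the CTLH ligase, had pair differences of 0.26, 0.03, 0.50, 0.53 and 0.39 in replicates 1 to 5. It did not pass in limma (adjusted p = 0.129) and passed with the replicate block (adjusted p = 0.0258), with a difference of 0.34 on its brightest probe set and 0.10 on the other. With the poly-A covariate UBE2H read 0.54 ± 0.23 (SE), without passing. UBE2O, which acts as E2 and E3 in one protein, differed by -0.18 (adjusted p = 0.192), lower in 5 of 5 pairs. UBE2W, which modifies the N terminus of substrates, differed by -0.28 (adjusted p = 0.109), lower in 4 of 5 pairs. The other UBE2O probe set went the other way, at 0.09 and higher in 4 of 5 pairs. The other UBE2W probe set read -0.06, and neither of these passed.

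None of the 3 general-purpose E2 enzymes of the UBE2D family passed. UBE2D2 averaged 8.37 ± 0.07 in SSEA1+ and 8.40 ± 0.08 in SSEA1- (SD, n = 5 each), and UBE2D3 differed by -0.01 on a probe set that can also match related transcripts. The dim UBE2D4 read 1.11 ± 0.21 in SSEA1+ and 0.89 ± 0.24 in SSEA1-, higher in 5 of 5 pairs (adjusted p = 0.347, and 0.0697 with the block). The third UBE2D2 probe set read 0.24 and did not pass (adjusted p = 0.0725). For UBE2E3, a nuclear-imported E2, the brightest probe set is of the kind shared between related transcripts and differed by 0.11. A dimmer UBE2E3 probe set, singled out after its value was seen, rose by 0.44 ± 0.08 (SE, adjusted p = 0.00633), and the third read 0.27 without passing. CDC34, the E2 that serves the SCF ligases, stands outside the UBE2 symbols. It rose by 0.33 ± 0.07 (SE, adjusted p = 0.0135), at 5.98 ± 0.10 in SSEA1+ and 5.65 ± 0.06 in SSEA1- (SD, n = 5 each), and lost that call without both arrays of replicate 1, 3 or 5, at an adjusted p of up to 0.0899. Its call also ended with the poly-A covariate, at 0.15 ± 0.12 (SE, adjusted p = 0.671), or 0.06 ± 0.21 with the block beside it. Its relative UBE2R2 read 0.11 ± 0.09 (SE), higher in 5 of 5 pairs and not past the threshold.

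The members with the largest negative differences were UBE2C and UBE2T, and neither passed without the block. UBE2C, the E2 of the anaphase-promoting complex, had 4.86, 4.26, 5.70, 5.46 and 4.89 in SSEA1+ replicates 1 to 5, against 5.22, 4.62, 6.08, 6.34 and 5.38 in SSEA1-. UBE2T, the E2 of the Fanconi anaemia pathway, had 4.73, 4.21, 4.68, 5.11 and 4.83 in SSEA1+, against 5.06, 4.51, 5.41, 5.63 and 5.27 in SSEA1-. The fractions overlapped in both genes, since replicates differed more from each other than the fractions did, but the SSEA1+ array was the lower one in all 5 pairs. UBE2C differed by -0.49 ± 0.32 (SE, adjusted p = 0.436), or ± 0.09 with the replicate block (adjusted p = 0.00559). Its other probe set was dim, at 0.43 in SSEA1+ and 0.53 in SSEA1-. That one read -0.09, lower in 2 of 5 pairs (adjusted p = 0.566 with the block). UBE2T differed by -0.46 ± 0.20 (SE, adjusted p = 0.202), or ± 0.08 with the block (adjusted p = 0.00444), and its other probe set read -0.40. The pair differences of UBE2C ran from -0.36 in replicates 1 and 2 to -0.88 in replicate 4.

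The same arrays differed in proliferation genes. Of 17 measured, such as the kinetochore gene CENPF and the topoisomerase TOP2A, 17 read lower in SSEA1+, with a median of -0.60. CENPF fell by 1.44 ± 0.28 (SE, adjusted p = 0.0105) and was the single one to pass, and under the block 10 fell. Over all genes 4.18% fell, and 8.62% under the block. The call of CENPF ended without the replicate 1, 3 or 5 pair, at an adjusted p of up to 0.0656. The poly-A covariate ended it too, at -1.53 ± 0.55 (SE, adjusted p = 0.271), or -0.42 ± 0.32 with the block beside it. Their mean log2 signal was 3.94, 3.39, 4.50, 4.42 and 4.04 in SSEA1+ replicates 1 to 5, against 4.46, 3.76, 5.12, 5.23 and 4.67 in SSEA1-. Within each fraction UBE2C ordered the replicates as this mean did, with replicate 2 lowest, while UBE2T did so in SSEA1- alone. The summed signal of the 17 ran from 303 to 650 in SSEA1+ and from 400 to 1059 in SSEA1-, all 17 were above background on every array, and their part in the UBE2C and UBE2T differences was not tested. With the poly-A covariate UBE2C read -1.57 ± 0.50 and UBE2T -0.70 ± 0.37 (SE), neither of which passed. With the replicate block beside the covariate they read -0.93 ± 0.25 and -0.26 ± 0.25 (SE).

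**Figure D4:**
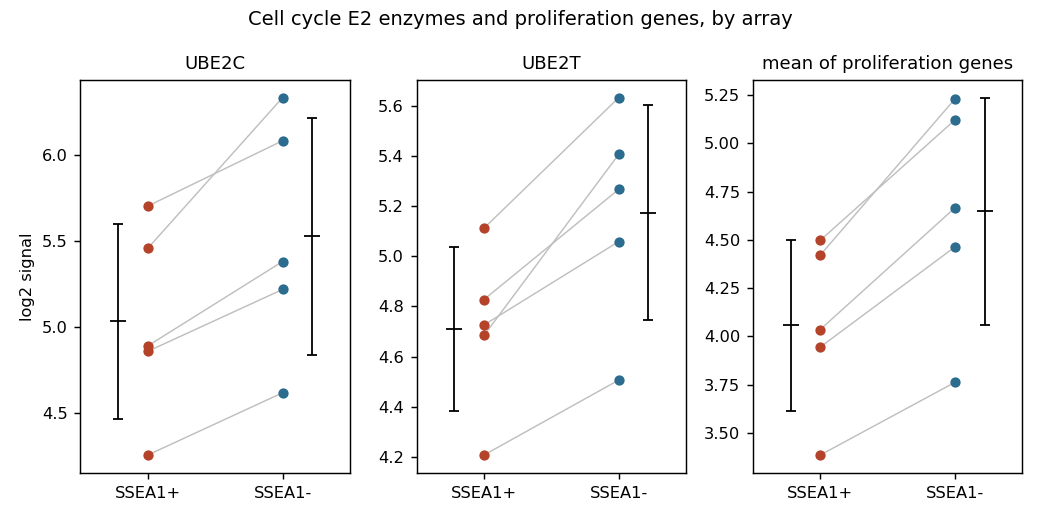
Log2 signal of UBE2C and UBE2T and the mean log2 signal of 17 proliferation genes, 1 point per array, with SSEA1+ left of SSEA1-, grey lines joining arrays of the same replicate number, and bars giving the mean ± SD of 5 arrays. All 5 lines slope the same way in each panel although the fractions overlap.

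The anaphase-promoting complex, for which UBE2C works, had 10 measured genes, of which none passed in limma without the block and 2, CDC23 and CDC20, fell with it. With the block 8.62% of all genes fell. CDC20, the activator that brings substrates to the complex, differed by -0.45 ± 0.35 (SE, adjusted p = 0.548, and 0.00859 with the block). CDC23, a scaffold subunit, differed by -0.48 ± 0.15 (SE, adjusted p = 0.0683, and 0.00537 with the block). Of the 10, 9 read lower in SSEA1+, with a median of -0.08.

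Of 21 F-box genes 1 rose and 20 did not pass, with a median of 0.06. The share that passed was 4.76%, against 7.39% of all genes. FBXO32, also called atrogin-1, is best known as the SCF receptor induced in wasting muscle. It had 4.81, 4.71, 4.89, 4.58 and 5.07 in SSEA1+ replicates 1 to 5, against 4.00, 4.28, 4.06, 3.40 and 3.76 in SSEA1-. SSEA1+ arrays were higher throughout, with pair differences between 0.44 and 1.31, and the rise was 0.91 ± 0.14 (SE, adjusted p = 0.00353). The second FBXO32 probe set rose by 0.92 (adjusted p = 0.00244), at 3.29 ± 0.17 in SSEA1+ and 2.38 ± 0.32 in SSEA1- (SD, n = 5 each). On the brightest probe set the FBXO32 call survived every omission of an array or a pair, with adjusted p between 0.00193 and 0.0334. Under the poly-A covariate the difference was 1.01 ± 0.28 and with the block beside it 1.24 ± 0.36 (SE), at adjusted p of 0.18 and 0.282. Among 5 measured skeletal muscle markers none passed, and the summed signal was 157 to 264 in SSEA1+ and 103 to 228 in SSEA1-. DES averaged 7.20 in SSEA1+ and 6.92 in SSEA1-, and ACTC1 averaged 5.86 and 5.70. Both were above background on all 10 arrays and higher in SSEA1+ in 4 of 5 pairs. The other 3 markers were dim or absent. MYOD1 averaged 0.42 in SSEA1+ and 0.33 in SSEA1-, above background on 6 of 10 arrays. MYF5 averaged 0.56 in SSEA1+ and 0.56 in SSEA1-, above background on 8 of 10 arrays. CKM lay at background on every array. Of the 5 markers 3 read higher in SSEA1+ and 2 lower. The part of these markers in the FBXO32 rise was not tested.

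Lower F-box readings came from FBXO38, FBXO34 and FBXO9, each lower in 5 of 5 pairs. FBXO38, a coactivator of the transcription factor KLF7, averaged 4.65 ± 0.17 in SSEA1+ and 5.02 ± 0.20 in SSEA1- (SD, n = 5 each), with an adjusted p of 0.0571, or 0.0175 with the block. FBXO34 was dim, at 0.68 ± 0.23 in SSEA1+ and 1.13 ± 0.28 in SSEA1-, above background on 9 of 10 arrays, with an adjusted p of 0.0698, or 0.0155 with the block. FBXO9, a receptor that acts in mTOR signalling, read 4.22 ± 0.13 in SSEA1+ and 4.50 ± 0.18 in SSEA1-, with an adjusted p of 0.112, or 0.0389 with the block. The other FBXO9 probe set, above background on 2 of 10 arrays, read 0.01. FBXO38 read -0.06 ± 0.18 and FBXO9 -0.13 ± 0.18 with the poly-A covariate, while FBXO34 read -0.57 ± 0.26 (SE). None of the 3 passed in that fit.

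On the higher side FBXO31, a receptor that directs cyclin D1 to degradation after DNA damage, differed by 0.27 and by 0.32 on its second probe set, neither past the threshold (adjusted p = 0.147 and 0.0902); the second passed with the block (adjusted p = 0.0378). FBXO11 differed by 0.23 on one probe set and by -0.09 on the other, so its readings disagreed in sign. FBXW7, the receptor for MYC and cyclin E, read 3.71 ± 0.12 in SSEA1+ and 3.71 ± 0.25 in SSEA1- (SD, n = 5 each) on its brightest probe set. The next brightest FBXW7 probe set differed by 0.31, higher in 5 of 5 pairs (adjusted p = 0.212, and 0.0378 with the block). FBXL5, the iron sensor that controls iron regulatory proteins, differed by 0.05 ± 0.07 (SE). Of the 21, 17 were above background on all arrays and FBXL16 was at background on all 10.

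The UBE3 ligases on the array were UBE3A, the HECT ligase lost in Angelman syndrome, and UBE3D, which was dim. UBE3A averaged 6.74 ± 0.05 in SSEA1+ and 6.69 ± 0.06 in SSEA1- (SD, n = 5 each), a difference of 0.04 ± 0.06 (SE, adjusted p = 0.785). UBE3D differed by -0.08 ± 0.12 (SE, adjusted p = 0.805).

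Of 18 deubiquitinases 1 rose and 17 did not pass, with a median of 0.06. The share that passed was 5.56%, against 7.39% of all genes. USP10, a ubiquitin protease that binds the stress granule protein G3BP1 and stabilises p53, had 6.16, 6.05, 6.29, 6.12 and 6.14 in SSEA1+ replicates 1 to 5, against 5.90, 5.74, 5.90, 5.84 and 5.87 in SSEA1-. The fractions were apart by 0.15 between the nearest arrays. USP10 rose by 0.30 ± 0.07 (SE, adjusted p = 0.0207), while its other probe set, near background, read 0.13. The call held in all 10 single-array leave-outs and ended without both arrays of replicate 1, 3 or 5, with adjusted p up to 0.0954, and it ended with the mean of both probe sets, which read 0.22 (adjusted p = 0.061). USP10 read 0.13 ± 0.12 (SE) with the poly-A covariate and did not pass.

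USP9X, a large X-linked protease that protects many signalling proteins, and USP16, which removes ubiquitin from histone H2A, had fractions that did not overlap but missed the threshold. USP9X had 6.12, 5.90, 5.93, 5.90 and 6.03 in SSEA1+ replicates 1 to 5, against 5.77, 5.83, 5.71, 5.40 and 5.74 in SSEA1- (adjusted p = 0.0725, and 0.0358 with the block). USP16 had 4.62, 4.80, 4.34, 4.84 and 4.79 in SSEA1+, against 5.08, 5.06, 4.87, 4.96 and 5.02 in SSEA1- (adjusted p = 0.0675, and 0.0252 with the block). The second USP16 probe set, singled out after its value was seen, fell by 0.36 (adjusted p = 0.0364), so both brighter readings of USP16 were lower in the SSEA1+ fraction. With the poly-A covariate USP9X read 0.41 ± 0.17 and USP16 read 0.04 ± 0.14 (SE).

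USP18, the protease that removes the interferon-induced modifier ISG15, averaged 1.91 ± 0.24 in SSEA1+ and 2.26 ± 0.13 in SSEA1- (SD, n = 5 each) without passing (adjusted p = 0.0855), and ISG15 itself differed by -0.01 ± 0.21 (SE). UCHL1, a hydrolase abundant in neurons, read 8.67 ± 0.09 in SSEA1+ and 8.61 ± 0.05 in SSEA1-, and UCHL3 read 5.97 ± 0.13 in SSEA1+ and 6.10 ± 0.18 in SSEA1-, with neither past the threshold. USP7, the protease that stabilises MDM2, differed by 0.16 ± 0.08 and USP5, which recycles free ubiquitin chains, by 0.20 ± 0.09 (SE), both short of the threshold. The other USP7 probe set read 0.29 with no overlap, without passing (adjusted p = 0.122). OTUD5 was the single OTUD member, at 0.13 ± 0.08 (SE). USP30, the mitochondrial deubiquitinase, was at background on all 10 arrays.

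Beyond the families themselves, of 10 measured ubiquitin and ubiquitin-like genes none passed in limma, and none with the block. UBL5, a ubiquitin-like protein of splicing, had no overlap between the fractions and was higher in 5 of 5 pairs, by 0.18 ± 0.06 (SE), without passing. UBB, a polyubiquitin gene, read 10.70 ± 0.02 in SSEA1+ and 10.74 ± 0.05 in SSEA1- (SD, n = 5 each). Of 22 cullin-RING core and regulator genes 1 rose, CDC34, and 3 fell, NAE1, COPS8 and DDB2. With the block 1 rose and 4 fell, and the median was -0.04. Over all genes 7.39% passed, and 14.3% with the block, which is the share to set beside each list here. Of 12 HECT and RBR ligases and related genes, WWP2 fell by 0.56 ± 0.14 (SE, adjusted p = 0.0285), and of 12 deubiquitinases of other families BRCC3, the lysine-63 protease of the BRCA1-A complex, fell by 0.51 ± 0.12 (SE, adjusted p = 0.0249). The call of WWP2 ended without SSEA1+ replicate 3 or 5 or SSEA1- replicate 1 or 3, and that of BRCC3 without SSEA1+ replicate 1 or 3 or SSEA1- replicate 1, 4 or 5, at adjusted p of up to 0.125 for WWP2 and 0.113 for BRCC3 over these and the pair leave-outs. The pairs that ended them were those of replicates 1, 3, 4 and 5 for WWP2 and of replicates 1, 3 and 4 for BRCC3. With the poly-A covariate WWP2 read -0.74 ± 0.26 and BRCC3 -0.38 ± 0.23 (SE), without passing, and with the block beside it -0.79 ± 0.26 and -0.95 ± 0.32. In the fit with the block alone HUWE1 and UBE4A also rose and VCPIP1 also fell (adjusted p = 0.0212, 0.0283 and 0.0449). Among 5 SUMO ligases and proteases and 7 genes of p97 and ubiquitin receptors none passed, with medians of -0.13 and 0.03; UBXN4 fell with the block (adjusted p = 0.0481). SAE1, the partner of UBA2, differed by -0.18 ± 0.09 (SE, adjusted p = 0.273).

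For 32 of the 71 genes the array carries more than 1 probe set, 49 further ones in all, of which 35 were above background on every array. Among those 35, 26 differed in the same direction as the brightest probe set of their gene. Of the 49, 5 passed, namely 1 each of FBXO32, UBE2Q1 and UBE2E3, which rose, and of UBA3 and USP16, which fell. Over all genes 7.39% passed on the brightest probe set. The share among further probe sets of all genes was not counted, so the 5 have no like share beside them.

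The size and direction of the 8 differences were compared across fits. Repeated quantile normalization, cyclic loess and median centring kept every direction among the 8. The poly-A covariate left DDB1, FBXO32, UBE2J2 and UBE2Q1 as large or larger, and USP10, UBA3, CUL1 and CUL2 smaller, with standard errors that were wider for all 8. No SSEA1+ array had a poly-A level as low as any SSEA1- array, so this fit extrapolates between the fractions. With the covariate 13 members had an unadjusted p under 0.05, where 14.6% of all genes did, against 24 in the test without it, where 23.8% did.

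**Figure D5:**
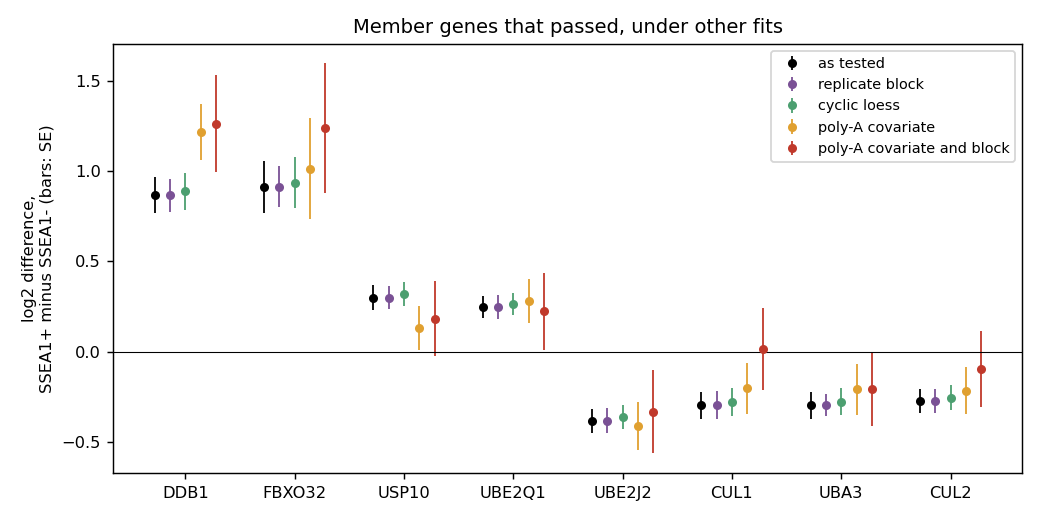
Log2 difference (SSEA1+ minus SSEA1-) of the 8 genes that passed, under 5 fits, left to right for each gene as tested, with the replicate block, after cyclic loess, with the poly-A covariate, and with covariate and block; bars are 1 standard error. DDB1 reads 0.86 as tested and 1.21 with the poly-A covariate, whereas USP10 reads 0.30 and 0.13, and CUL1 lies near 0 with the covariate and the block together.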

How the data were processed

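Each deposited value is the log2 signal of 1 probe set on 1 array. The submitters' processing notes name RMA as the method; its version and its handling of background are not stated there. Hybridisation controls rose by 0.937 to 0.991 per unit of log2 concentration on SSEA1+ arrays and by 1.016 to 1.046 on SSEA1- arrays (at the nominal concentrations of the supplier), and 4.55% to 8.16% of values per array lay below 0, so dim probe sets carry the greatest uncertainty. Symbols came from the platform annotation, and 66 of the 71 Entrez identifiers matched a RefSeq table of Sscrofa11.1, all with the same symbol.

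Fractions were compared in limma 3.58.1 (R 4.3.3, lmFit and eBayes) on all 24123 probe sets, with Benjamini-Hochberg adjustment over all of them and a threshold of 0.05. A probe set counted as above background past the 95th percentile of 23 controls for sequences absent from the pig. The fit without the block was also run on simulated arrays that varied independently of each other. Deviations shared by same-numbered arrays were not simulated, so that run does not cover them. Replicates are called biological but not said to be separate animals. The p-values set each difference against the spread between these samples, which may be partly technical and need not hold variation between animals.

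Same-numbered arrays deviated together from their fraction means, with correlations of 0.214, 0.58, 0.356, 0.119 and 0.247 for replicates 1 to 5, and the series' design text can be read as 1 sort per replicate yielding both, so the numbers were treated as pairs in the fit with the replicate block. The match is weakest for replicate 4: SSEA1+ replicate 4 correlated more with SSEA1- replicate 5 (0.314), and SSEA1- replicate 4 with SSEA1+ replicate 3 (0.304).

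The members and gene lists were chosen with earlier results of these data known. Named were all members that passed, up to 4 more per role with the smallest p, and the brightest per role; members that passed with the block were added after their values were seen, as were others described for their role. Alternatives covered the block, a poly-A covariate, normalizations, a filter, eBayes settings, the probe set rule, the threshold and left-out arrays; a fit without array controls was added later.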

Additional observations from a re-analysis of the deposited data

Results flagged for a closer look

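In 4 of 58 sets of 5 arrays examined, 1 array lay apart from the rest of its fraction, with a gap to the nearest array above 0.71 of the whole range; chance flags about 1 in 20. CUL2 read 5.37 in SSEA1- replicate 2, against 5.51 to 5.56 on the other SSEA1- arrays. UBA2 read 6.56 in the same array, against 6.93 to 7.05. UBE2V1 read 7.07 in SSEA1+ replicate 2, against 7.15 to 7.18 on the other SSEA1+ arrays. USP9X read 5.40 in SSEA1- replicate 4, against 5.71 to 5.83. Without SSEA1- replicate 2 UBA2 passed (adjusted p = 0.0272).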

How the results depend on the processing

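The median difference of the 71 genes moved by less than its spread between pairs (SD 0.03) in every alternative, between 0.00 and 0.04. The number of genes that rose was 4, and it was 6 with the replicate block, 1 with the poly-A covariate and 0 with both. It was 2 to 5 when arrays or pairs were left out. At an adjusted p of 0.1 UBE2V1 and USP9X joined the 4. The number that fell was 4, and it was 11 with the replicate block, 0 with the poly-A covariate, 0 with both, 8 at an adjusted p of 0.1, and 0 to 6 in leave-outs. Over all genes the counts were 217 and 283, with the block 382 and 583, with the covariate 4 and 2, and with both 0 and 1. Signs turned, in each case without passing: with the covariate for UBE2O (0.041) and USP16 (0.043); with both terms for CUL1 (0.015), CUL4A (0.023), FBXO38 (0.028), UBE2O (0.053) and USP16 (0.0020); and with the mean of all probe sets for UBE2D2 (0.053). When single arrays were left out, UBE2D2 ran between -0.054 and 0.0051 and UBE3D between -0.18 and 0.016, and without the replicate 4 pair they read 0.0074 and 0.040; the cause was not tested. Of the values of the 29 named genes under these alternatives, 629 kept their direction and side of the threshold, 65 lost and 19 gained a call, and 12 turned. The block changed no call of the 8 genes that passed. Dim genes such as FBXO34, UBE3D, USP2 and USP30 are limited by signal over background.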
